A study of Mus musculus with 90 samples.

Results

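Mll2 occupancy in mouse embryonic stem cells was examined at sites where neither its partner Menin nor the mark that Mll2 deposits was called. Overlapping autosomal peaks of 2 Mll2 antisera were merged, regions holding a peak of both sera were kept, and those overlapping any Menin peak or any H3K4me3 peak by at least 1 bp were set aside. This left 1436 of 19723 autosomal Mll2 regions, or 7.28% (95% exact Clopper-Pearson interval 6.92 to 7.65%). The members were thus selected on the peak calls themselves, and their number, their Mll2 strength and their lack of overlap are descriptions of that choice. Intervals cover counting error only.

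The series mapped Mll2, Menin and H3K4me3 beside RNA and chromosome-contact assays, of which only the peak lists of 5 ChIP-seq libraries enter here. Cells of all 5 were of the V6.5 embryonic stem cell line and are labelled wild type. The Mll2 libraries came from cells with no hairpin label, 1 library with the homemade serum 9172 and 1 with the homemade serum 9175. The Menin library, also 1, came from cells with no hairpin label. The H3K4me3 libraries, replicates 1 and 3 of antibody 28, came from cells that carried a lentiviral shGFP control hairpin. Mll2 and H3K4me3 were therefore mapped in different cell preparations, and each serum and Menin lack a replicate. Depth ran from 11550409 kept tags (Menin) to 21936546 (H3K4me3 replicate 1), with 19584961 for serum 9172 and 13739094 for serum 9175. A region without a Menin or H3K4me3 peak is one where none was called at this depth. No list from Mll2-deficient cells was used here, so how many of these peaks depend on Mll2 was not tested.

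Mll2 (also called Kmt2b) is a histone methyltransferase that places methyl groups on lysine 4 of histone H3, as the catalytic subunit of a COMPASS-type complex. Its CXXC domain binds DNA with unmethylated CpG, the typical state of CpG-island promoters. Menin is a subunit that Mll1 and Mll2 complexes share and that other COMPASS-type complexes lack. H3K4me3, the trimethylated form, marks active and poised promoters, and other methyltransferases of the same family place it too. The files carry positions on the mouse build mm9 and no gene names, so regions are given by position alone and the cell type was not checked against marker genes. No repeat annotation was used, so whether members, among them the strongest and the most remote, lie in repeats was not checked.

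The lack of Menin and the lack of H3K4me3 often fell on the same Mll2 regions. No Menin peak overlapped 2125 of the Mll2 regions (10.8%), and no H3K4me3 peak overlapped 2972 (15.1%). Among the regions without Menin, 67.6% (65.5 to 69.6%) also lacked H3K4me3, against 8.73% (8.32 to 9.15%) of those with Menin. Read the other way, 48.3% (46.5 to 50.1%) of the regions without H3K4me3 lacked Menin, against 4.11% (3.82 to 4.42%) of those with H3K4me3. Besides the 1436 members there were 1536 regions with Menin only, 689 with H3K4me3 only and 16062 with both. The member share ran between 9.40% (7.75 to 11.3%, 105 of 1117) on chromosome 1 and 4.91% (3.63 to 6.47%, 47 of 958) on chromosome 17. Outside the rule, 13 of 358 Mll2 regions on chromosome X, or 3.63% (1.95 to 6.13%), had neither peak.

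Members were weak Mll2 sites in both sera. Strength is given as tags per kb, the tags of a serum's peaks in a region divided by their summed length. In serum 9172 the members had a median of 44.5 tags per kb (quartiles 40.5 and 50.3), against 45.8 in regions with Menin only, 46.5 in regions with H3K4me3 only and 72.1 (54.1 and 94.9) in regions with both. In serum 9175 the members had a median of 33.3 tags per kb (30.3 and 38.1), against 34.8, 35.4 and 56.8 (43.2 and 74.2) in the same 3 classes. The members thus lay close to the other classes that lack a partner peak, while the regions with both stood apart, and the interquartile ranges of members and of regions with both did not overlap in either serum.

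**Figure D1:**
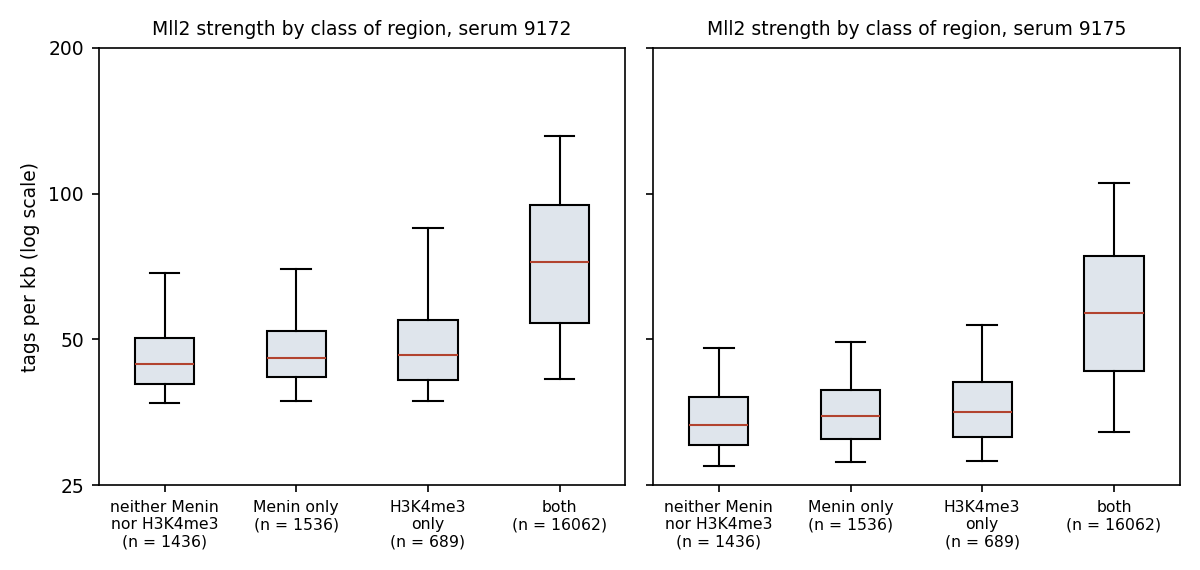
Tags per kb (log scale) in serum 9172 (left) and serum 9175 (right) for the members and the 3 other classes of autosomal Mll2 regions. Boxes show the quartiles with the median as a line, and whiskers run from the 5th to the 95th percentile; the medians of members were 44.5 and 33.3 tags per kb, against 72.1 and 56.8 in regions with both Menin and H3K4me3.

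The counts behind these strengths were small. A median member rested on 27 tags in serum 9172, a count whose exact Poisson interval is 17.8 to 39.3, and on 23 tags (14.6 to 34.5) in serum 9175. Regions with both held medians of 87 and 78 tags. Members were also narrower, with a median of 758 bp (656 and 914 bp), against 812 bp with Menin only, 851 bp with H3K4me3 only and 1341 bp with both. MACS, the authors' peak caller, scores a peak as minus 10 times the log10 of its p-value. This deposited score was under 100 in 61.4% of members in serum 9172, in 66.4% in serum 9175 and in 46.5% in both sera at once, against 10.5%, 8.09% and 4.58% of regions with both. The deposited fold enrichment, the authors' own value per peak, had a median of 8.21 in serum 9172 and 8.97 in serum 9175 in members, against 15.7 and 17.9 in regions with both. With Mll2 peaks limited to a score of at least 100, the rule gave 268 members, and a fold of at least 10 in both sera left 175.

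Ranked by strength over all Mll2 regions, members thinned out quickly. Here strength is the geometric mean of the sera's tags per kb, each per 1000000 kept tags. Members made up 27.7% (25.7 to 29.7%) of the weakest decile of the regions, 20.1% of the next, 12.7% of the third and 6.90% of the fourth, and these 4 deciles held 1329 of the members (92.6%). The share was 0.152% (3 regions; 0.0314 to 0.444%) in the eighth decile and 0.406% (8 regions; 0.175 to 0.797%) in the strongest, whose intervals overlap. Members as strong as a typical region with both were few: 54 members (3.76%) reached that class's median in serum 9172, 21 (1.46%) in serum 9175 and 14 (0.975%) in both sera.

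**Figure D2:**
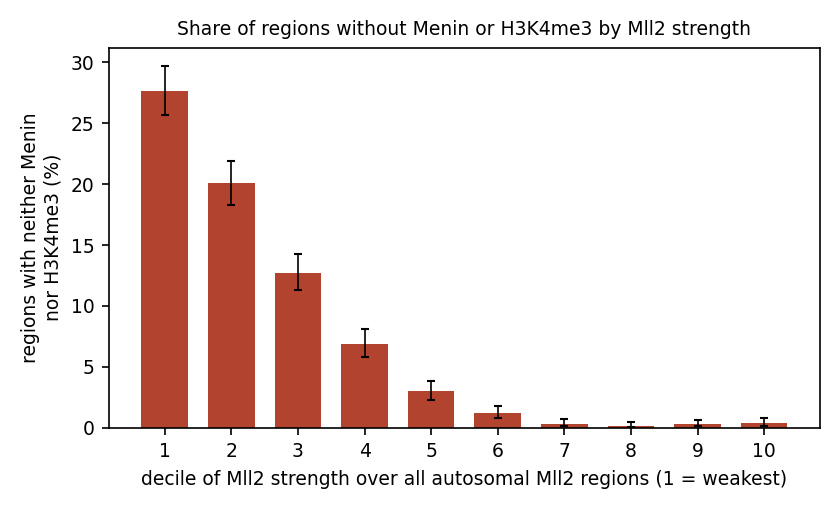
Share of autosomal Mll2 regions that had neither Menin nor H3K4me3 (percent, bars from 0) in each decile of Mll2 strength, weakest at the left, with exact 95% intervals for counting error. The share was 27.7% in the weakest decile and 0.406% in the strongest.

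The sera ranked members loosely. Spearman's rho between their tags per kb was 0.277 across the 1436 members, against 0.438 with Menin only, 0.460 with H3K4me3 only and 0.861 across the 16062 regions with both. Pearson's r of the log2 tags per kb was 0.42 in members and 0.85 in regions with both. These are descriptions across regions of 1 library per serum that share an input of 20878021 kept tags, and the classes differ in their range of strength and in tags per peak. Within the weakest 4 deciles of strength, rho was 0.148 in members and 0.213 in regions with both. Deciles were cut on the combined strength of both sera, which itself lowers rho within them. In members with a score of at least 100 in both sera, rho was 0.432.

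Single members seldom differed strongly between sera. The rule required a called peak of both sera, which limits how far their ratio can go in weak members. Regions called in 1 serum only are outside it: 2467 peaks of serum 9172 and 2466 of serum 9175 overlapped neither Menin nor H3K4me3. The ratio of serum 9172 to serum 9175 was taken on tags per kb, each per 1000000 kept tags and over that serum's own peak length. Peaks within members had a median width of 587 bp in serum 9172 and 691 bp in serum 9175. A wider peak lowers tags per kb at the same tag count, and the part of peak width in these ratios was not tested. The log2 ratio had a median of -0.09 and an SD of 0.32 across members. In regions with both, the median was -0.19 and the SD 0.29. Serum 9172 was the higher serum in 519 members (36.1%). It was more than 2-fold higher in 15 members (1.05%), against 10 of the regions with both (0.0623%), and serum 9175 was more than 2-fold higher in 3 members (0.209%), against 43 (0.268%). The highest ratio was 3.57, on chromosome 5 from 66600853 to 66601650 (mm9, as for each position given here), with 147 tags per kb in serum 9172 (92 tags; exact Poisson interval 118 to 180) and 28.8 in serum 9175 (23 tags; 18.3 to 43.3). The next highest was 3.09 on chromosome 10 from 121488675 to 121489333, and a member of the chromosome 11 group described further on had 3.02. In the other direction, serum 9175 was 2.33-fold higher on chromosome 7 from 4459148 to 4460126, with 45.7 tags per kb in serum 9172 and 74.7 in serum 9175. It was 2.06-fold higher on chromosome 12 from 106560304 to 106560945 and 2.03-fold higher on chromosome 7 from 97171402 to 97172282.

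**Figure D3:**
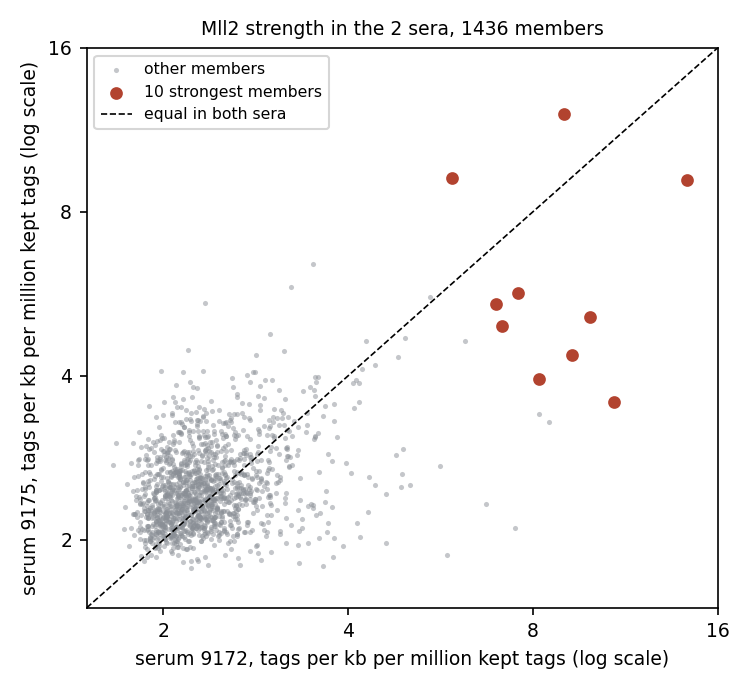
Tags per kb per 1000000 kept tags of each member in serum 9172 (horizontal) and serum 9175 (vertical), both on log scales, with the 10 strongest members in red and equality dashed. Of the 10 strongest members, 8 lay on the serum 9172 side of the line.

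The summits of the sera lay close together in most members. For each member, the distance was taken between the summits of the peak with the most tags in either serum. Its median was 62 bp (quartiles 24 and 137 bp), against 67 bp with Menin only, 87 bp with H3K4me3 only and 75 bp with both. The summits were within 50 bp in 634 members (44.2%) and within 100 bp in 942 (65.6%), while 10 shared the exact position and 51 (3.55%) lay over 500 bp apart. Most members, 1410 (98.2%), held 1 peak of each serum. Within the weakest 4 deciles of strength, summits were within 100 bp in 64.7% of members (median width 753 bp), against 50.4% of regions with both (median width 995 bp). Wider regions leave more room between summits, and the part of width in this difference was not tested. The median distance was 30 bp in the 175 members with a fold of at least 10 in both sera.

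Many members lay beside H3K4me3 or Menin peaks without touching them. Taken edge to edge, the nearest H3K4me3 peak was a median of 16465.5 bp away (quartiles 4509 and 47000 bp) and the nearest Menin peak 9197.5 bp (2364 and 35210 bp). The member list was then moved as a whole by 50 kb and by 100 kb in each direction, and moved positions that overlapped Menin or H3K4me3 were dropped, which kept 1314 to 1347 positions per move. At these local shifts the median distances were 23385.5 to 29376 bp for H3K4me3 and 17816 to 22456 bp for Menin, farther than at the members in each of the 4 moves.

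Members had peaks nearby more often than the moved positions. An H3K4me3 peak lay within 1 kb of 7.59% of members, against 2.23 to 3.62% of the moved positions, and a Menin peak within 1 kb of 13.9%, against 3.86 to 6.33%. Within 5 kb the shares were 26.6% for H3K4me3 (382 members; 24.3 to 29.0%), against 12.3 to 14.6%, and 38.2% for Menin (548 members; 35.6 to 40.7%), against 18.3 to 22.3%. Within 100 kb the shares were 87.5% against 83.9 to 87.0% for H3K4me3 and 87.9% against 83.4 to 87.2% for Menin, but at that window positions moved by 50 or 100 kb share much of their surroundings with the members. With moves of 200 kb and 500 kb, the moved positions stood at 74.4 to 81.1% for H3K4me3 and 70.2 to 79.4% for Menin within 100 kb, and at 11.5 to 11.9% and 15.0 to 16.5% within 5 kb. One of these peaks of either kind lay within 5 kb of 596 members (41.5%; 38.9 to 44.1%), against 20.6 to 24.4% of the moved positions. The other 840 members had neither peak within that distance. Such nearness was not particular to members. Peaks that only serum 9172 had and that overlapped neither kind had H3K4me3 within 5 kb at 26.9% and Menin at 38.0%. For such peaks that only serum 9175 had, the shares were 20.1% and 31.6%.

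**Figure D4:**
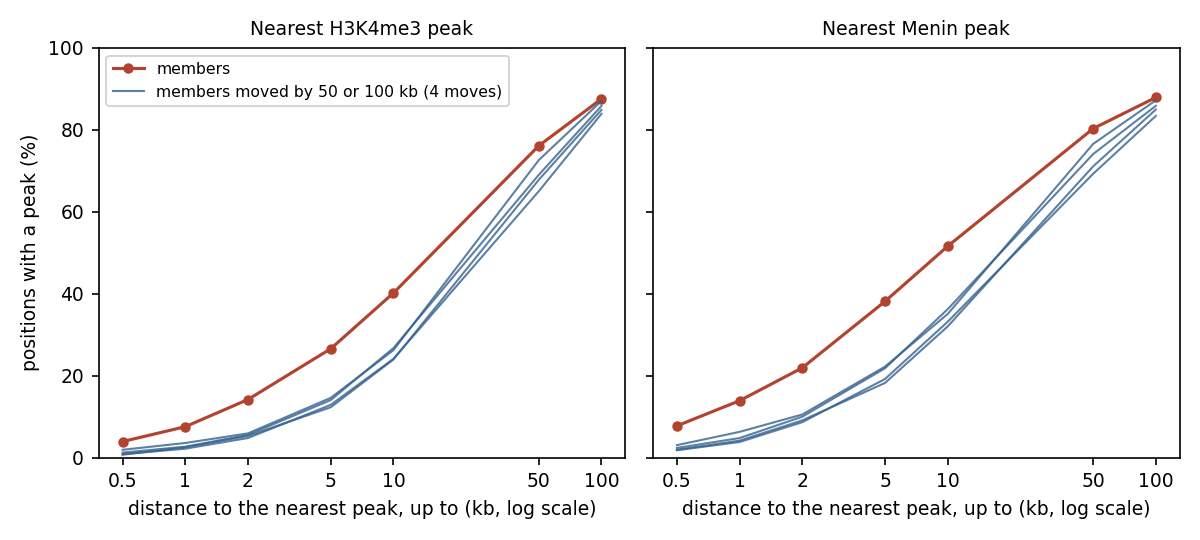
Share of members (red) and of members moved by 50 kb or 100 kb in either direction (4 blue lines) with an H3K4me3 peak (left) or a Menin peak (right) within a given distance in kb (log scale). At 5 kb the members stood at 26.6% and 38.2%, above each moved list.

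Most neighbouring H3K4me3 peaks were on 1 side only. Within 5 kb, 346 members had H3K4me3 on 1 side and 36 (2.51%) on both sides, while Menin was on 1 side of 430 and on both sides of 118 (8.22%). No such counts are given for moved positions, so this is not shown to be particular to members. The nearest H3K4me3 peak overlapped Menin at 77.1% of members, against 82.6% of all autosomal H3K4me3 peaks of both replicates, and an Mll2 region of both sera at 66.2%, against 71.9%. Those comparison shares count the peaks of each replicate separately, so a site called in both enters more than once, while each member gives 1 nearest peak. At the 382 members with H3K4me3 within 5 kb, the nearest H3K4me3 peak overlapped Menin at 82.5% and an Mll2 region at 69.9%. The nearest Menin peak overlapped H3K4me3 at 53.7% of members, against 50.4% of all autosomal Menin peaks. At the 548 members with Menin within 5 kb that share was 43.4%. The nearest Menin peak overlapped an Mll2 region of both sera at 49.0% of members, against 41.9% of all autosomal Menin peaks. At those 548 members the share was 40.3%. The nearest other Mll2 region was a median of 18780 bp from members, against 7816 bp from regions with Menin only, 19390 bp with H3K4me3 only and 16130 bp with both.

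Median strength differed little with this distance. The 243 members within 1 kb of a peak of either kind had medians of 44.3 tags per kb in serum 9172 and 34.0 in serum 9175, and the 127 members more than 100 kb away had 43.6 and 34.3. The distance between summits was larger near such peaks, with medians of 77 bp within 1 kb, 80 bp at 1 to 5 kb, 53.5 bp at 5 to 20 kb, 56 bp at 20 to 100 kb and 50 bp beyond 100 kb. Median width moved with it, at 786, 805, 748, 731 and 728 bp in the same order of distance. The part of width in this trend was not tested.

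The strongest members were singled out by position. Strength rank 1 went to chromosome 6 from 3150650 to 3151944, with 279 tags per kb in serum 9172 (155 tags; exact Poisson interval 237 to 327) and 126 in serum 9175 (163 tags; 107 to 147). Its summits fell on the same base, and the nearest H3K4me3 peak was 16.3 kb away. The called peak spanned 555 bp in serum 9172 and 1295 bp in serum 9175, so similar tag counts gave unlike tags per kb. Rank 2, on chromosome 18 from 40467588 to 40468244, had 176 and 166 tags per kb in the order serum 9172 and serum 9175. Its deposited folds were 4.63 and 5.42, and a fold under 5 in serum 9172 occurred in 18 members (1.25%). Tags per kb divided by the fold, a rough stand-in for local background, came to 38.0 in serum 9172 and 30.6 in serum 9175 there, against medians over members of 5.38 and 3.67. At rank 1 these quotients were 30.2 and 7.54. Both regions thus combined many tags with a high background, and the part of that background in their rank was not tested.

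Rank 3, on chromosome 1 from 124253435 to 124253938, was the most isolated of the 10 strongest. It had 116 tags per kb in serum 9172 and 127 in serum 9175, with folds of 18.0 and 21.2 and summits 1 bp apart, and the nearest H3K4me3 peak was 270 kb and the nearest Menin peak 788 kb away. Rank 5, on chromosome 4 from 116874550 to 116875894, had 148 and 78.1 tags per kb in serum 9172 and serum 9175, with folds of 39.5 and 31.0, and lay 7.19 kb from H3K4me3. Rank 6, on chromosome 19 from 61341080 to 61342049, had 181 and 60 tags per kb, with folds of 47.0 and 16.6 and its nearest peak, one of Menin, 6.94 kb away. Rank 8, on chromosome 9 from 65043359 to 65044963, had 136 and 74.4 tags per kb and lay 1.38 kb from H3K4me3. Rank 9, on chromosome 1 from 194571350 to 194572689, had 140 and 67.9 tags per kb and no peak of either kind within 23.6 kb. Ranks 4, 7 and 10 lay in the chromosome 11 group.

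Compared in tags per kb per 1000000 kept tags, serum 9172 was the higher in 8 of the 10 strongest members, in 53 of the 100 strongest and in 36.1% of all. The 8 include rank 1, with 155 tags over a 555 bp peak in serum 9172 and 163 tags over 1295 bp in serum 9175. Its side depends on those widths, since serum 9175 had more tags there from fewer kept tags. Of the 10 strongest, 5 were also among the 10 with the highest fold. The highest serum 9172 fold of any member was 70.9, on chromosome 7 from 51526470 to 51527322, a region of strength rank 13 with a serum 9175 fold of 22.0 and with 166 and 45.1 tags per kb in serum 9172 and serum 9175. The highest serum 9175 fold of any member was 35.9. The 100 strongest members had H3K4me3 within 5 kb at 37.0% (27.6 to 47.2%), against 25.8% (23.5 to 28.3%) of the other members, and Menin at 43.0% (33.1 to 53.3%), against 37.8% (35.2 to 40.5%). The intervals overlap for both kinds of peak. They also count ranks 4, 7, 10 and 14 separately, though these are neighbours in the chromosome 11 group, each within 664 bp of H3K4me3. In the 175 members with a fold of at least 10 in both sera, H3K4me3 was within 5 kb at 25.7% and Menin at 28.0%.

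Members were mostly scattered. Linked at gaps of up to 25 kb, 1254 stood alone, 75 pairs and 9 groups of 3 formed, and 1 group held 5 members, so 182 members (12.7%) had another member nearby. The group of 5, picked out after its values were seen, spanned chromosome 11 from 87256040 to 87285414, or 29.4 kb. Its members had 51.9, 194, 212, 160 and 160 tags per kb in serum 9172, in order along the chromosome, and 31.3, 70.3, 49.3, 46.8 and 54.2 in serum 9175. The last 4 held strength ranks 4, 7, 14 and 10. Their ratio of serum 9172 to serum 9175, in tags per kb per 1000000 kept tags, was 1.94, 3.02, 2.40 and 2.07, all on the serum 9172 side. Each of these 4 lay 163 to 664 bp from an H3K4me3 peak, and 2 of them lay 244 and 298 bp from Menin. The neighbouring H3K4me3 peaks were all called in replicate 1, at 41.4 to 74.8 tags per kb, and 1 of them was also called in replicate 3, at 37.7 tags per kb.

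**Figure D5:**
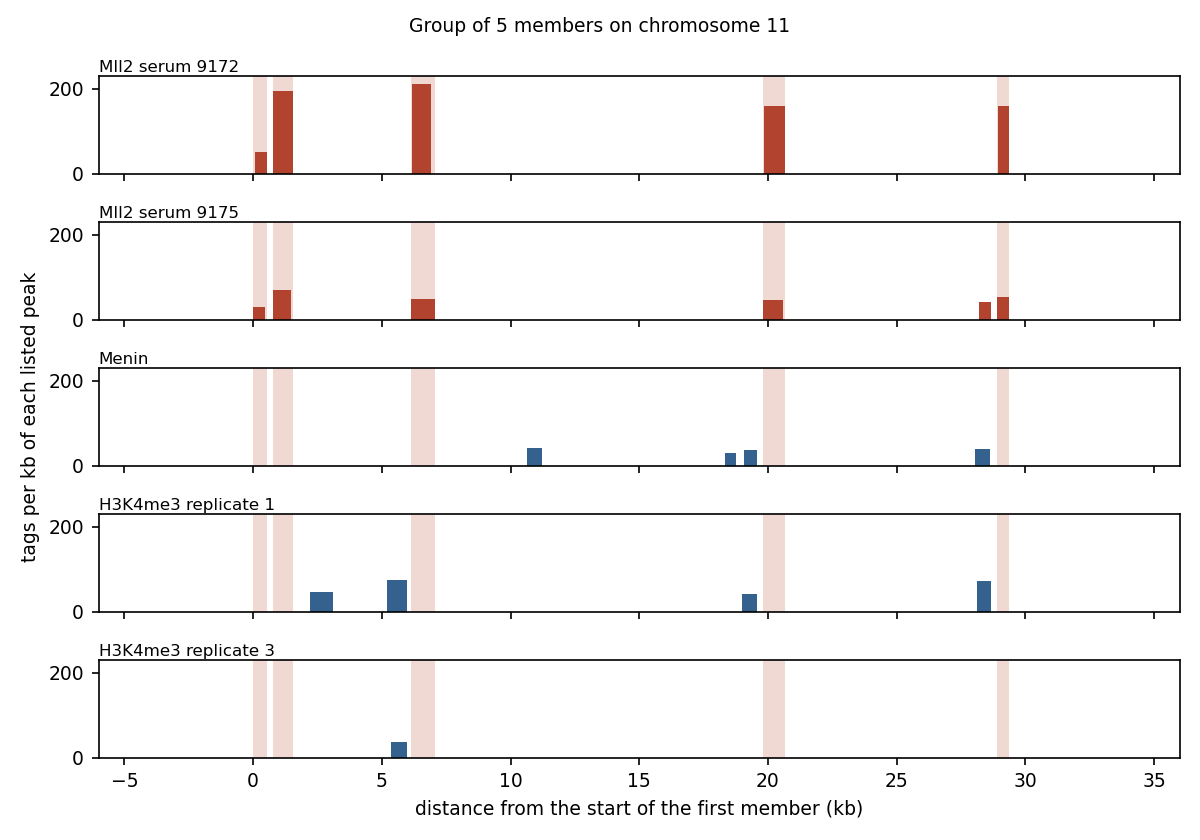
Peaks of the 5 libraries over the group of 5 members on chromosome 11, placed by distance in kb from the start of the first member, with bar height the tags per kb of each listed peak and the members shaded. The Mll2 peaks of the last 4 members reach 160 to 212 tags per kb in serum 9172, and the Menin and H3K4me3 peaks lie outside the shaded members.

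Few regions lay close to the limit of the rule. The members nearest to another peak were on chromosome 8 from 114289663 to 114290247, 2 bp from Menin, on chromosome 9 from 61757981 to 61760418, 7 bp from H3K4me3, and on chromosome 15 from 79908511 to 79909446, 8 bp from H3K4me3. Their strengths were 47.3, 66.9 and 52.4 tags per kb in serum 9172 and 32.5, 43.4 and 34.2 in serum 9175. Just outside were regions on chromosome 5 from 25031636 to 25032477 and on chromosome 11 from 102681701 to 102682452 and from 22698915 to 22699461, with overlaps of 2 bp (Menin), 5 bp (H3K4me3) and 6 bp (Menin). Theirs were 48.1, 53.4 and 39.5 tags per kb in serum 9172 and 32.1, 29.8 and 27.4 in serum 9175. Within 100 bp of the edge lay 38 members on the inside and 23 regions with an overlap of up to that length on the outside.

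The most remote member lay on chromosome 11 from 111704817 to 111705821, 776 kb from any Menin or H3K4me3 peak, with 38.8 tags per kb in serum 9172 and 42.8 in serum 9175. The next were on chromosome 14 from 10074397 to 10075189, at 575 kb, and on chromosome 16 from 3122740 to 3123462, at 566 kb. The chromosome 16 region had 86.7 tags per kb in serum 9172 and 34.6 in serum 9175. The widest member, on chromosome 1 from 88238772 to 88242645, covered 3874 bp, and its summits were 952 bp apart. Those on chromosome 9 from 15120570 to 15123487 and on chromosome 16 from 25523278 to 25526018 covered 2918 and 2741 bp. The last of these had the largest distance between summits of all members, 1408 bp.

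Requiring both sera had removed other calls of the same kind, with lower medians but overlapping strengths. Of 4934 autosomal peaks that only serum 9172 had, 2467 (50%; 48.6 to 51.4%) overlapped neither Menin nor H3K4me3, with a median of 41.7 tags per kb (quartiles 39.0 and 45.7, highest 611) and a median width of 485 bp. Of 5860 that only serum 9175 had, 2466 (42.1%; 40.8 to 43.4%) overlapped neither, with medians of 30.8 tags per kb (28.9 and 33.6, highest 761) and 586 bp. The strongest of these single-serum peaks exceeded every member, whose highest values were 279 tags per kb in serum 9172 and 166 in serum 9175. The corresponding peaks within members had medians of 44.5 tags per kb and 587 bp in serum 9172 and 33.3 tags per kb and 691 bp in serum 9175.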

How the data were processed

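Per the file headers, the authors ran MACS 1.4.2 on each library with its input, at a p cutoff of 1e-05, and kept 1 tag at each position. Replicates were called separately. The submitters' processing notes name Bowtie 0.12.9, among other tools, and the build mm9. Tag counts were deposited as integers, unscaled, 1 per peak. The deposited fold enrichment is a ratio to a background that MACS estimated, the deposited score is minus 10 times the log10 of the p-value, and the deposited false discovery rate is in percent and reached 0.95. Keeping 1 tag per position limits the tags of narrow strong peaks, and 17% and 14% of tags were removed as duplicates in serum 9172 and serum 9175.

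Mll2 regions, strengths, distances and fixed shifts were computed with Python 3.11.15, numpy 2.4.6, pandas 2.3.3 and scipy 1.17.1, with positions counted from 1. The intervals printed here are exact Clopper-Pearson or Poisson. Those used for medians and for rho in the comparison of alternatives are not printed. No statistical test was run: each serum and Menin have 1 library, and the members were selected on these peaks. The scripts were tested on simulated lists. Libraries were grouped by title or antibody label. Regions are named by a rule, namely the 10 strongest, the 3 with the highest and the 3 with the lowest ratio of the sera, the 3 nearest and the 3 farthest, the 3 widest, and 3 just outside. The members and lists were chosen with earlier results of these data known. Alternatives changed the overlap, the distance from other peaks, the score and fold minimum, the H3K4me3 replicate, the window, the strength measure and the length of the shifts. The other libraries of the 90 samples in the series were not used here.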

Additional observations from a re-analysis of the deposited data

How the results depend on the processing

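Over 86 recomputed values of 9 results, 52 stayed within 1.5 times (the number of members) or within the 95% interval of the reported value (the other results), and 34 moved. The number of members was 840 with no Menin or H3K4me3 peak within 5 kb, 268 with Mll2 scores of at least 100, 2409 with Menin and H3K4me3 scores of at least 100 and 175 with a fold of at least 10 in both sera. It was 1451 to 1683 with 1 H3K4me3 replicate left out. In those with Mll2 scores of at least 100 and those with a fold of at least 10, median strength was 53.1 and 55.6 tags per kb in serum 9172 and 40.3 and 39.9 in serum 9175, rho between the sera was 0.429 and 0.335, and the median summit distance was 78 and 30 bp. With no peak within 5 kb, serum 9175 had 32.8 tags per kb and the summit distance was 54 bp. A score of at least 100 in both sera among the members, an alternative chosen after seeing the data, gave a rho of 0.432.

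The share of members within 5 kb of H3K4me3 was 29.05% with overlap counted from 50% of the shorter interval, 18.6% with no peak within 1 kb and 32.1% with Mll2 scores of at least 100. It ran from 21.7 to 26.3% with 1 H3K4me3 replicate left out, the lower value without replicate 1. For Menin the share was 41.6%, 26.6% and 43.7% under the first 3 of these, 26.8% with Menin and H3K4me3 scores of at least 100 and 28.0% with a fold of at least 10. Windows of 2, 10 and 50 kb gave 14.2, 40.2 and 76.1% for H3K4me3 and 21.9, 51.6 and 80.3% for Menin. At the moved positions, a mean of 13.5% had H3K4me3 within 5 kb, against 18.6% with moves of 10 to 20 kb and 11.7% with moves of 200 to 500 kb, and for Menin 20.4% against 26.4% and 15.95%. Leaving out the group of 5, chosen after seeing the data, kept both shares within their intervals. The shares with no peak within 5 kb are 0 by construction and were not computed. Beyond these constructions the causes were not tested. No paired analysis was possible because each serum and Menin have 1 library and no result came from a test.

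Depth limits single members: the interval of the median member's 27 tags in serum 9172, 17.8 to 39.3, covers the members' quartiles of 21 and 36 tags.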
